A study of Mus musculus with 18 samples.

Results

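Probes for 5 genes, 1 each for Amy1, Chia1, Agr2, Spdef and Bhlha15, were followed over 18 arrays of mouse gland RNA. They were chosen by gene symbol from the annotation of the 10500 probes in the deposited table, and each symbol matched 1 probe. All 5 passed the filter on dim probes, as did 7463 probes in all. The mice were orchiectomised BALB/c males, so every group lacked testicular androgen. For 21 days they carried a testosterone pellet or a placebo pellet, and their lacrimal, meibomian and submandibular glands were taken. Each of the 6 groups, 3 glands with testosterone or placebo, had 3 pools, called A, B and C. The labels give 10 glands of 5 animals for a pool, although they also give 4 animals per sex and experiment. Each pool was hybridised to its own 1-colour array. Lacrimal glands secrete the aqueous and protein part of the tear film, meibomian glands in the eyelids secrete its lipid, and submandibular glands secrete saliva.

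Amy1 and Chia1 encode products of secretory acinar cells. Amy1 is salivary amylase, which splits starch and which the mouse makes mainly in the parotid gland. Chia1 is acidic chitinase, a secreted enzyme that splits chitin. Agr2 is a protein disulfide isomerase of the endoplasmic reticulum that mucin-making cells need, as shown in the mouse intestine. Spdef is an ETS transcription factor that drives goblet and mucous cells to mature. Bhlha15, also called Mist1, is a bHLH transcription factor that enlarges the secretory apparatus of serous acinar cells and other cells that secrete by exocytosis.

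The promoters of the 4 genes whose values differed most clearly between glands or with testosterone are shown because 1 probe may stand for several starts and because Agr2, Spdef and Bhlha15 lay lower together in one gland. All sequences are RefSeq windows of GRCm38.p6 from 250 bases before to 50 bases after a start, read on the gene's strand, and all 5 genes matched the RefSeq table. RefSeq gives Amy1 2 starts. In the mouse the upstream one is known for its use in the parotid gland and the downstream one for its use in the liver, and the array probe gives 1 value for both. Capitals mark matches to the letters AGAACA, a core that the androgen receptor and related receptors read, to TATAAA, to GGATG, a core that SPDEF reads, or to CCACG, a core that XBP1 reads, on either strand, so that AGAACA can stand as TGTTCT and CCACG as CGTGG. The windows are chr3:113577701-113578000 (minus strand, Amy1 upstream), chr3:113574713-113575012 (minus strand, Amy1 downstream), chr12:35992675-35992974 (plus strand, Agr2), chr17:27728902-27729201 (minus strand, Spdef) and chr5:144190036-144190335 (plus strand, Bhlha15).
Amy1, upstream start: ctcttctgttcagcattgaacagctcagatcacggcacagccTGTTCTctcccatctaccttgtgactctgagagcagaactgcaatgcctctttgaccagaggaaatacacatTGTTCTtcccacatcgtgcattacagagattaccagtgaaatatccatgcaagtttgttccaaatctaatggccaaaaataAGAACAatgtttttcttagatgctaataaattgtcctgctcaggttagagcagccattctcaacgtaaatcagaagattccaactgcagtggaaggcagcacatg
Amy1, downstream start: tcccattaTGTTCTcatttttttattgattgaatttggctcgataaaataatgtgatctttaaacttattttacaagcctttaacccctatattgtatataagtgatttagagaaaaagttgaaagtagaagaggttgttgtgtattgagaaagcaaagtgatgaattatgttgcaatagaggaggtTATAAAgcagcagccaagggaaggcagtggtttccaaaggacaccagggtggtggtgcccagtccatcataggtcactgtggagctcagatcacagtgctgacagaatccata
Agr2: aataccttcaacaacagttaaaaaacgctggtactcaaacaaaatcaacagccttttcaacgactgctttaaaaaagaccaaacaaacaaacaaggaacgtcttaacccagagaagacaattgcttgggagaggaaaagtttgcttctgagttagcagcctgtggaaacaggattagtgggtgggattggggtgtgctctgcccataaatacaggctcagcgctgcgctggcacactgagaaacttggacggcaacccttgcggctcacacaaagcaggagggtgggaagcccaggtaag
Spdef: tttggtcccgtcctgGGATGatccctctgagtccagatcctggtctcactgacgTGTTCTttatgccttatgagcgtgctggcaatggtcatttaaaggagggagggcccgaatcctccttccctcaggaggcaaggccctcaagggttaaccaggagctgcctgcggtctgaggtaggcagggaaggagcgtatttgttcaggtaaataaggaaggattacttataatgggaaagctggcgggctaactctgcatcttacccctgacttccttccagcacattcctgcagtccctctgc
Bhlha15: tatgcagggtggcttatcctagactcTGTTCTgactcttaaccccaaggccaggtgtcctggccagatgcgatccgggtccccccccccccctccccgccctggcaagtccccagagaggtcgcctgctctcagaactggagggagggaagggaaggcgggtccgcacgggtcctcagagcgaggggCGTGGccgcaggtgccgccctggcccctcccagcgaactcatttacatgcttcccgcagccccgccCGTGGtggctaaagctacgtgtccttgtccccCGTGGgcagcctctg

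AGAACA stood 3 times in the upstream Amy1 window and 1 time in each of the downstream Amy1, Spdef and Bhlha15 windows. Of all 32851 promoters of that length 19% held it. TATAAA stood in the downstream Amy1 window and in the Chia1 window (chr3:106113132-106113431, plus strand, not printed), against 13.6% of all promoters. GGATG stood in the Spdef window, against 43.2% of all, and CCACG stood 3 times in the Bhlha15 window, against 32.8% of all. CATATG and CAGCTG, E-boxes that Bhlha15 can bind, were searched too and are held by 3.91% and 16.3% of all promoters. The Agr2 window held none of these 6 motifs. A match in these letters is a description of the sequence only.

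Values below are probe intensities on the deposited linear scale, where the median of each array lay between 0.929 and 0.952. They compare 1 probe between pools, never 2 probes. Changes are log2 differences with their standard error from limma, fitted to log2(intensity + 0.174) over all 18 arrays, and a probe was called at a Benjamini-Hochberg adjusted p of 0.05 over the 7463 probes. The offset shrinks the changes of dim probes. The labels describe the pools as separate groups of animals. Each p-value uses the spread of a probe between pools of the same group, estimated jointly over all 6 groups. A standard error given for 1 gland thus also holds the spread in the other glands. The small number of pools limits the precision. The meibomian and submandibular labels fitted the markers, and no marker list was set for the lacrimal gland. Summed intensities of 6 Harderian and sebaceous gland probes were 421 to 668 in meibomian pools and at most 22.1 elsewhere. Those of 3 submandibular granular tubule probes were 685 to 899 in submandibular pools and at most 24.1 elsewhere. Meibomian arrays had a lower maximum (134.6 to 219.1) than lacrimal (597.5 to 1042) and submandibular arrays (636.3 to 742.6). A difference between glands and a difference between their arrays cannot be told apart. In whole glands, fewer cells of a type and less RNA per cell cannot be told apart either.

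Of the 18 pools, 3 stood apart for Amy1 or Chia1 and are shown singly. In lacrimal testosterone pool C and in lacrimal placebo pool A a small set of probes was bright that was dim in the other lacrimal pools. By a rule chosen after the values were seen, at least 4-fold above both other pools of the group and over an intensity of 2, the first pool had 6 such probes and the second had 7. The other 16 pools had 0 to 6. All 6 of the first pool were among the 7 of the second (100% and 85.7%): Amy1, Chia1, the chitinase-like secreted protein Chil3, the transcription factor Egr3, the kallikrein Klk1b5 and an unnamed probe. The seventh probe of the second pool was Mymk, which encodes a protein of muscle cell fusion. It measured 1.98, 2.27 and 2.81 in lacrimal testosterone pools A, B and C, against 23.8, 1.05 and 1.09 in the placebo pools, so that testosterone pool C was not at least 4-fold above the others of its group. Its submandibular values were 163 to 189 in testosterone pools and 211 to 248.5 in placebo pools. Chil3 is a relative of Chia1, and the others were named here because they met the rule.

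The 6 shared probes were all bright in the submandibular gland, but they reached different shares of that level in the bright lacrimal pools. Relative to the mean of the submandibular placebo pools, Amy1 reached 33.4% in lacrimal testosterone pool C and 46.7% in lacrimal placebo pool A. Chia1 reached 19.0% and 33.9% in the same pools. Klk1b5, a product of submandibular granular tubules, reached 1.56% and 2.14%, a share smaller than that of the 5 other probes in both pools. In the other 4 lacrimal pools Amy1 lay between 0.766% and 4.17% and Klk1b5 between 0.0460% and 0.0943%.

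**Figure D1:**
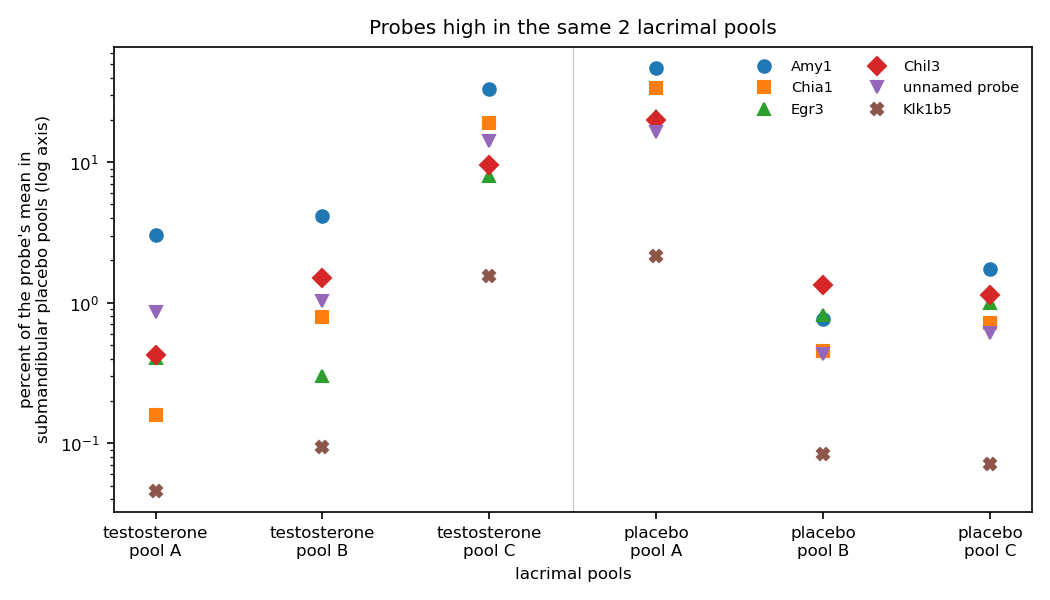
Percent of each probe's mean intensity in submandibular placebo pools (log axis), for the 6 probes that were bright in the same lacrimal pools; each point is 1 of the 6 lacrimal pools. All 6 probes stand high in testosterone pool C and placebo pool A, and Klk1b5, at 1.56% and 2.14% there, stays below the others.

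The plot of shares by lacrimal pool shows Amy1 on top, Chia1 next and Klk1b5 at the bottom in both bright pools, while Chil3, Egr3 and the unnamed probe changed places. Parotid glands lie near the lacrimal glands of the mouse, and 3 of 12 genes of a parotid list, Lpo, Aqp5 and Car6, had a probe. These 3 were also bright in submandibular and in all lacrimal pools, where their summed intensity was 784, 654 and 570 in testosterone pools A, B and C and 1099, 1082 and 1021 in the placebo pools. Testosterone pool C had the lowest sum of its group and placebo pool A the highest of its group. Whether neighbouring gland tissue entered these pools was not tested.

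The third pool is submandibular testosterone pool C, where Chia1 was dim and Amy1 was not. By the counterpart rule, at least 8-fold below both other pools, which were over an intensity of 2, 55 probes were low in this pool. Submandibular testosterone pool A had 52 such probes, submandibular placebo pools C and A had 29 and 14, and the other pools had 0 to 9. Chil3 was among the 55, at 0.212 in pool C against 30.3 and 42.6 in testosterone pools A and B, and so was Creb3l1, a transcription factor of secretory cells, at 0.184 in pool C against 6.54 and 7.91. Egr3 was at 21.9 in pool C, against 69.0 and 90.4.

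Amy1 was brightest in the submandibular gland, dim in the meibomian gland, and spread widely over the lacrimal pools. Its submandibular intensities were 270.4, 427 and 317 in testosterone pools A, B and C and 284, 245 and 240.1 in the placebo pools. The groups overlapped, and every value was above the 99.5th percentile of its array. Meibomian intensities of Amy1 were 0.397, 0.451 and 0.360 in testosterone pools and 0.277, 0.390 and 0.333 in placebo pools. In the lacrimal gland it measured 7.82, 10.7 and 85.6 in testosterone pools A, B and C, and 119.7, 1.97 and 4.47 in their placebo counterparts A, B and C. Without the 2 bright pools, both lacrimal testosterone values lay above both placebo values.

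Chia1 had the same order of glands, with a low pool in the submandibular gland as well. Submandibular intensities were 273, 294 and 1.32 in testosterone pools A, B and C, against 292, 243 and 212 in the placebo pools. The other 5 submandibular pools were thus bright, and pool C with testosterone lay within the range of the lacrimal pools without the bright set. The lacrimal values were 0.395, 1.96 and 47.3 in testosterone pools and 84.5, 1.14 and 1.80 in placebo pools, and the meibomian values 0.128, 0.170 and 0.0751 in testosterone pools and 0.140, 0.0912 and 0.0359 in placebo pools. On the deposited scale every meibomian pool was dimmer than every other pool for this probe. The low end of the arrays differed too, with a 10th percentile of 0.0514 to 0.0741 in meibomian arrays. It was 0.211 to 0.316 in lacrimal and 0.211 to 0.243 in submandibular arrays. By rank on its array, lacrimal testosterone pool A (20.8th percentile) lay below meibomian testosterone pool B (22.9th) and placebo pool A (21.6th).

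Agr2 was brightest in the lacrimal gland. Its lacrimal intensities were 399.7, 350.02 and 289 in testosterone pools A, B and C and 318, 292 and 327 in placebo pools, which overlapped. Meibomian values were 27.7, 15.2 and 14.3 in testosterone pools and 17.3, 23.8 and 12.7 in placebo pools, and overlapped too. Submandibular values were 7.37, 7.72 and 6.68 in testosterone pools and 13.5, 12.7 and 14.7 in placebo pools, so that the groups did not overlap and the lowest placebo pool stood well above the highest testosterone pool.

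Spdef was brightest in the submandibular gland of placebo-treated mice. There it measured 5.15, 5.14 and 3.54 in testosterone pools A, B and C, against 10.3, 10.6 and 12.2 in placebo pools, without overlap. Lacrimal values were 4.51, 3.19 and 3.55 in testosterone pools and 4.03, 3.13 and 0.641 in placebo pools, of which pool C was the lowest. Meibomian values were 0.863, 0.422 and 0.402 in testosterone pools and 0.589, 0.845 and 0.358 in placebo pools, all under the median of their arrays.

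Bhlha15 was brightest in the lacrimal gland, lower in the submandibular gland, and near the floor in the meibomian gland. Lacrimal intensities were 7.23, 14.7 and 18.3 in testosterone pools A, B and C and 7.29, 14.6 and 17.9 in the placebo pools. The 2 groups covered nearly the same range, and pool A was lowest in both. That held for 15.1% of all tested probes, for 9 of 33 probes of the endoplasmic reticulum list (27.3%) and for 3 of 7 Bhlha15 targets (42.9%). Submandibular intensities were 3.22, 4.55 and 5.40 in testosterone pools, against 8.63, 6.68 and 7.95 in placebo pools, with no overlap. In the meibomian gland it measured 0.138, 0.0456 and 0.150 in testosterone pools and 0.0776, 0.118 and 0.114 in placebo pools, between the 5.92nd and the 21.97th percentile of their arrays.

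**Figure D2:**
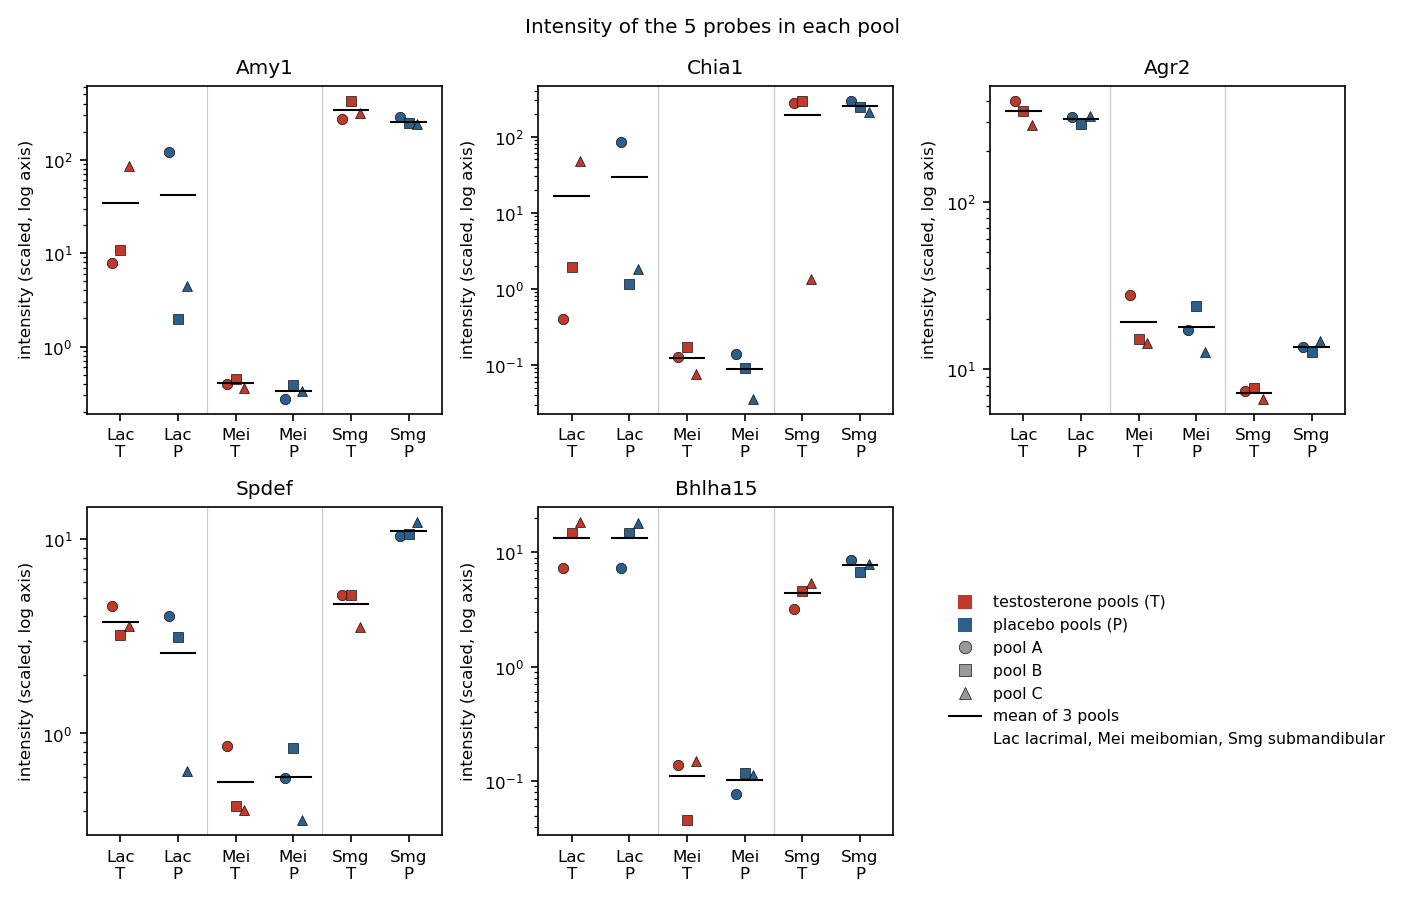
Intensity (log axis) of the 5 probes in each pool, testosterone pools in red and placebo pools in blue, with 1 symbol per pool letter and a bar at the mean of 3 pools. Agr2, Spdef and Bhlha15 are separated by treatment in the submandibular gland, and Amy1 and Chia1 spread over more than a factor of 10 within the lacrimal groups.

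The plot of intensities by pool shows the order of glands for each probe. Amy1 was highest in the submandibular gland and Agr2 in the lacrimal gland, called with either pellet. Chia1 and Spdef were called lower in the lacrimal than in the submandibular gland in placebo pools, and in testosterone pools they were not called. Bhlha15 was called higher in the lacrimal than in the submandibular gland in testosterone pools, and in placebo pools it was not. Between lacrimal and submandibular placebo pools 4 of the 5 probes were called, 1 higher and 3 lower in the lacrimal gland, where 44% of all tested probes were called (26.2% higher and 17.8% lower). Agr2 was higher in the lacrimal gland by 4.50 ± 0.23 (limma, adjusted p = 1.05e-10). Amy1 was lower (-4.59 ± 1.05, adjusted p = 0.00205), as were Spdef (-2.32 ± 0.44, adjusted p = 0.000457) and Chia1 (-5.36 ± 1.85, adjusted p = 0.0278). Amy1 stayed called when any single pool was left out, at -6.34 without lacrimal placebo pool A and -3.44 without pool B of that group. The Chia1 call was lost when any of lacrimal placebo pools B or C or submandibular placebo pools A, B or C was left out (adjusted p 0.0529 to 0.118). Bhlha15 differed by 0.67 ± 0.33 (adjusted p = 0.108), but was called with array weights (0.79, adjusted p = 0.0484) and at 1.05 without lacrimal placebo pool A (adjusted p = 0.0132) or without the 3 pools that stand apart (adjusted p = 0.00605).

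Between lacrimal and submandibular testosterone pools 3 of the 5 were called, where 52.5% of all tested probes were (28.3% higher and 24.2% lower). Agr2 was higher in the lacrimal gland by 5.53 ± 0.23 and Bhlha15 by 1.503 ± 0.33 (adjusted p = 0.00105), and Amy1 was lower (-4.09 ± 1.05, adjusted p = 0.00375), at -5.16 without lacrimal pool C and -3.44 without lacrimal pool A. Spdef, which separated these glands in placebo pools, had a difference of -0.28 with an interval of -1.22 to 0.66 (adjusted p = 0.622). Chia1 was not called (-3.68 ± 1.85, adjusted p = 0.108). Lacrimal pool C or submandibular pool C left out alone gave a call (-5.49 and -6.20). Without the 3 pools that stand apart Chia1 was at -8.01. Those pools were set apart for their own Amy1 or Chia1 values, so a p-value from that fit is no test of either gene.

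Against the meibomian gland the members were higher almost throughout. In placebo pools 5 of 5 were called higher in the lacrimal gland, where 67.9% of all tested probes were called (38.7% higher), from 1.59 ± 0.44 for Spdef to 5.51 ± 0.33 for Bhlha15. Amy1 differed there by 4.39, and by 2.64 without lacrimal placebo pool A, still called. The Chia1 call there (4.54, adjusted p = 0.0399) was lost without lacrimal placebo pool A (2.63, adjusted p = 0.225), without any 1 of the 3 meibomian placebo pools, with the larger offset (3.22) and with quantile normalization over all arrays (3.94). In testosterone pools 4 of 5 were called higher in the lacrimal gland (69.2% of all tested probes were called, 36.9% higher), all but Chia1 (3.71, adjusted p = 0.0864). It was called with array weights (3.73), without lacrimal testosterone pool A (5.09) or without submandibular testosterone pool C (3.71). Without the 3 pools that stand apart, chosen partly for Chia1 itself, it was 1.90.

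In submandibular placebo pools 4 of 5 were called higher than in meibomian placebo pools, where 66.6% of all tested probes were called (36% higher), with Amy1 at 8.99 ± 1.05 and Chia1 at 9.89 ± 1.85. Agr2 was the exception at -0.35 ± 0.23 (adjusted p = 0.196), and was called without meibomian placebo pool C (-0.57, adjusted p = 0.0466). In testosterone pools, where 67.3% of all tested probes were called (35.7% higher and 31.5% lower), 4 of 5 were called higher in the submandibular gland, and Agr2 was called lower there (-1.31 ± 0.23, adjusted p = 0.000104). The order of glands for Agr2 was thus lacrimal, meibomian, submandibular in testosterone pools. In placebo pools the last 2 differed by less than the test resolved.

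With testosterone Agr2 fell in the submandibular gland, and the other 4 probes there and all 5 in the other glands were not called. In the submandibular gland 13.8% of all tested probes were called and 5.25% were called lower. Agr2 fell by 0.90 ± 0.23 on the log2 scale (interval -1.38 to -0.41, limma adjusted p = 0.0159), to 7.26 ± 0.53 in testosterone pools, against 13.7 ± 1.01 in placebo pools (SD, n = 3 each), which is 1.86-fold lower. The call was lost without submandibular placebo pool C (-0.84, adjusted p = 0.0531), with array weights (-0.89, adjusted p = 0.111) and without the 3 pools that stand apart (-0.84, adjusted p = 0.0605). The gland fitted alone gave an adjusted p of 0.00845.

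Spdef and Bhlha15 also lay lower in all 3 submandibular testosterone pools but were not called. Without overlap between the groups were 3 of the 5 probes, all lower, as were 28.8% of all tested probes in either direction and 12.3% lower. Spdef had 4.61 ± 0.93 in testosterone pools and 11.04 ± 0.99 in placebo pools, with a change of -1.25 ± 0.44 (interval -2.18 to -0.31, adjusted p = 0.0738). Its call differed between settings, with adjusted p from 0.00429 to 0.181. It was 0.0114 with the gland fitted alone, 0.0244 with a 4-fold larger offset, 0.0418 with pool letter as a replicate block, 0.0472 without lacrimal placebo pool A and 0.00429 without lacrimal placebo pool C, with the change itself the same when a lacrimal pool was left out. Bhlha15 had 4.39 ± 1.10 in testosterone pools and 7.75 ± 0.99 in placebo pools, with a change of -0.82 ± 0.33 (interval -1.51 to -0.12, adjusted p = 0.113). Without the 3 pools that stand apart its change was -0.98 (adjusted p = 0.0318).

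The secreted products were not called in the submandibular gland. Amy1 averaged 338 ± 80.5 in testosterone pools and 257 ± 23.9 in placebo pools (0.38 ± 1.05, interval -1.85 to 2.61, adjusted p = 0.857). Its standard error is that of the joint fit over all glands, and was 0.18 with the gland fitted alone (adjusted p = 0.300). Chia1 had a change of -2.32 ± 1.85 (adjusted p = 0.453), which rested on pool C with testosterone. Without that pool it was 0.20.

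Some markers of other cell types were called in the same submandibular pools, where 13.8% of all tested probes were. The share called was 66.7% for granular tubule, 40% for striated muscle, 40% for adipocyte, 37.5% for pancreas and 33.3% for duct probes. Groups did not overlap for 28.8% of all tested probes in this gland. Granular tubules are ducts that androgen is known to enlarge in the mouse. Of their 3 probes 2 rose, Egf (2.95 ± 0.20) and Smr2 (4.04 ± 0.15). The third, Klk1b5, was not called (-0.44 ± 1.02), but lay lower without overlap, as 12.3% of all tested probes did. It was at 462 to 568 in testosterone pools and 647 to 743 in placebo pools. The summed intensity of all 3 was 810 to 899 in testosterone pools and 685 to 781 in placebo pools. Of 9 duct probes Krt7 rose (1.05 ± 0.19) and Elf5 and Ascl3 fell, with sums of 168 to 185 in testosterone pools and 128 to 136 in placebo pools. Of 10 striated muscle probes 4 fell and 0 rose (Atp2a1 by 1.65 ± 0.37), with sums of 4.52 to 5.69 in testosterone pools and 6.34 to 18.02 in placebo pools. Of 5 adipocyte probes Retn and Fabp4 fell, with sums of 44.3 to 49.7 in testosterone pools and 50.1 to 140.2 in placebo pools. Of 8 pancreas probes 1 rose and 2 fell, and the sums overlapped. Of 7 tested acinar probes 0 were called, and the sums of the 9 on the array were 104 to 111 in testosterone pools and 56.4 to 132 in placebo pools. Of the parotid, sublingual, Harderian and sebaceous, and plasma and B cell probes 0 were called. None of the sums given was 0. The part of these cells in the values of Agr2, Spdef and Bhlha15 was not tested.

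In the lacrimal gland 0 of the 5 probes were called, where 28.1% of all tested probes were. At an unadjusted p under 0.05 the count was also 0. Agr2 averaged 346 ± 55.5 in testosterone pools and 312 ± 17.9 in placebo pools (0.14 ± 0.23, interval -0.35 to 0.62, adjusted p = 0.712). Bhlha15 averaged 13.4 ± 5.63 and 13.3 ± 5.42 in the same order (0.01 ± 0.33, interval -0.69 to 0.70, adjusted p = 0.989), and its change was -0.64 without the 3 pools that stand apart (adjusted p = 0.144). Spdef averaged 3.75 ± 0.68 in testosterone pools and 2.60 ± 1.75 in placebo pools (0.79 ± 0.44, adjusted p = 0.205). That value rested on the low placebo pool C, without which it was 0.06.

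For Amy1 and Chia1 the sign of the lacrimal change depended on which pool was left out. Amy1 changed by 0.88 ± 1.05 (adjusted p = 0.584) over all pools. Without placebo pool A it was 2.63 (adjusted p = 0.00957), without placebo pool B -0.27, without testosterone pool C -0.19, and without the 3 pools that stand apart 1.56 ± 0.30 (adjusted p = 0.00207). Chia1 changed by -0.64 ± 1.85 (adjusted p = 0.841), by 1.26 without placebo pool A, by 0.74 without testosterone pool A, by -2.45 without testosterone pool C, and by -0.55 ± 0.44 without the 3 pools that stand apart (adjusted p = 0.425). Leaving the 3 pools out together was chosen after their values were seen. The pools were picked on Amy1 and Chia1, so for these genes the p-values without them are no test.

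Some markers of other cell types were called in the lacrimal gland too, where 28.1% of all tested probes were. The share called was below that for pancreas (25%), sublingual (25%), adipocyte (20%) and striated muscle probes (0%). It was above for plasma and B cell (57.1%), Harderian and sebaceous (50%), duct (44.4%) and acinar probes (42.9%). For granular tubule and parotid probes it was 33.3%, 1 of 3 each. Of 8 tested pancreas probes 2 fell and 0 rose. The first was the lipase relative Pnliprp1, at 0.362, 2.40 and 0.327 in testosterone pools, against 567, 516 and 489.7 in placebo pools (-9.21 ± 0.95), and the other the protease Ctrb1 (-1.65 ± 0.19). The sums of the 10 on the array were 12.6 to 15.4 in testosterone pools and 508 to 584 in placebo pools. Of 7 tested acinar probes 3 fell, Dmbt1, Pigr and Ltf, and 0 rose, with sums of 112 to 131 in testosterone pools and 194 to 228 in placebo pools. Of 9 duct probes 1 rose and 3 fell, with sums of 103 to 117 and 111 to 128 in the same order of groups. Of 7 plasma and B cell probes 2 rose and 2 fell, and their sums overlapped. Of 3 granular tubule probes Smr2 rose (2.07 ± 0.15), with sums of 13.9 to 24.1 in testosterone pools and 4.79 to 22.3 in placebo pools. Of 4 tested sublingual probes the secreted protein gene Bpifb2 rose (3.91 ± 0.19), with sums of the 5 on the array of 31.0 to 33.9 in testosterone pools and 24.3 to 28.3 in placebo pools. Of the 3 parotid probes, whose sums are given above, Car6 fell (-1.01 ± 0.17). Of 6 Harderian and sebaceous probes Cidea rose (1.85 ± 0.32) and Plin2 and Mgst1 fell, with sums of 6.12 to 6.98 in testosterone pools and 7.39 to 8.76 in placebo pools. Of 5 adipocyte probes Retn fell (-0.73 ± 0.22), with sums of 4.91 to 7.63 in testosterone pools and 7.16 to 9.01 in placebo pools. Of 10 striated muscle probes 0 were called. Their part in the values of the 5 genes was not tested.

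The pancreatic amylase gene Amy2a5, a near copy of Amy1, bears on this comparison, because a probe may bind RNA of both. Amy2a5 measured 1.29, 1.39 and 0.897 in lacrimal testosterone pools A, B and C, against 0.381, 0.356 and 0.371 in the placebo pools. It rose by 1.31 ± 0.15 (limma adjusted p = 5.41e-06), from placebo values under the 40th percentile of their arrays (0.638 to 0.646). In testosterone pool C and placebo pool A, where Amy1 was bright, Amy2a5 measured 0.897 and 0.381. Whether either amylase probe bound RNA of the other gene was not tested. In the submandibular gland the change of Amy2a5 was 0.41 ± 0.15 (adjusted p = 0.0924).

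**Figure D3:**
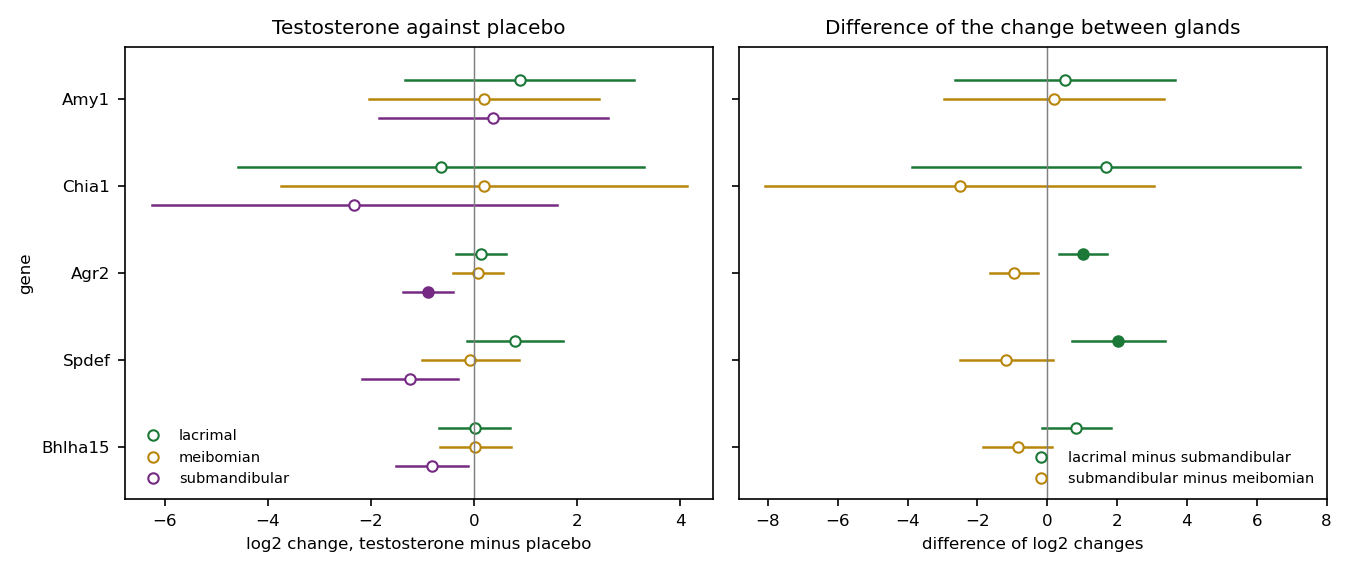
Left, log2 change with testosterone against placebo for the 5 probes in each gland; right, differences of these changes between glands. Points are limma estimates over all 18 arrays, lines are 95% intervals, and filled points passed an adjusted p of 0.05: Agr2 in the submandibular gland, and Agr2 and Spdef for lacrimal minus submandibular.

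In the meibomian gland 0 of the 5 probes were called, where 0.59% of all tested probes were. No member had an unadjusted p under 0.05 there. Changes ran from -0.07 ± 0.44 for Spdef to 0.19 ± 1.85 for Chia1, and only Agr2 lay well above the median of the arrays. The standard error of Chia1 is that of the joint fit, and was 0.17 with the meibomian gland fitted alone. Agr2 averaged 19.1 ± 7.504 in testosterone pools and 17.9 ± 5.56 in placebo pools (0.07 ± 0.23, adjusted p = 0.931). The pools with most Agr2, A with testosterone (27.7) and B with placebo (23.8), also had most Spdef (0.863 and 0.845). They also had most of the secreted mucous peptide Tff1 (40.8 and 32.5) and of the gel-forming mucin Muc5ac (43.1 and 46.4). In the other 4 meibomian pools Tff1 was 17.5 to 23.7 and Muc5ac 25.4 to 39.1. This was noticed after the values were seen, and Tff1 and Muc5ac were named from the mucous list for it. The share of all tested probes with the same pattern was not counted. Striated muscle markers were bright in all meibomian pools, with sums of 246 to 316 in testosterone pools and 267 to 325 in placebo pools, and 0 of 10 were called.

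**Figure D4:**
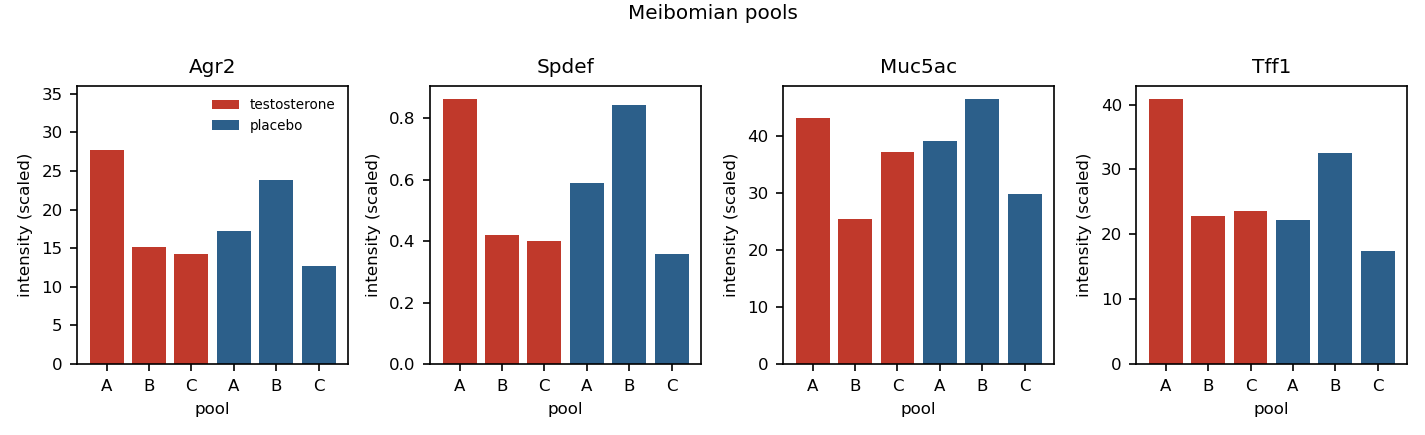
Intensity of Agr2, Spdef, Muc5ac and Tff1 in each meibomian pool, testosterone in red and placebo in blue, 1 bar per pool with each axis from 0. Pool A with testosterone and pool B with placebo hold the highest bars of their group for all 4 probes.

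The plot of meibomian pools shows that the pool with most Agr2 in each treatment also had most of 3 other probes. The other tested probes of the mucous list were not compared in this way. In testosterone pool A the array maximum (219.1) and the Harderian and sebaceous sum (668) were also the highest of the group. In placebo pool B neither was the highest of its group (139.2 and 424). Whether a brighter upper end of both arrays gave the pattern was not tested. Muc5ac and Tff1 are products of conjunctival goblet cells and other mucous cells. Their intensities in the lacrimal and submandibular glands were at most 2.44 and 0.545.

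The change with testosterone differed between the lacrimal and the submandibular gland for 2 of the 5 probes, where 24% of all tested probes differed (10.3% higher in the lacrimal gland). For Agr2 the lacrimal change minus the submandibular change was 1.03 ± 0.32 (interval 0.34 to 1.72, adjusted p = 0.0290). For Spdef it was 2.04 ± 0.62 (interval 0.71 to 3.36, adjusted p = 0.0254), and 1.31 without lacrimal placebo pool C (adjusted p = 0.0239). Both calls were lost with array weights (adjusted p 0.129 for Agr2 and 0.0575 for Spdef) and without any of lacrimal testosterone pool A, submandibular testosterone pool C or submandibular placebo pool C (0.0502 to 0.0620). That of Agr2 was also lost without lacrimal placebo pool B or lacrimal testosterone pool B (0.0624 and 0.0556) and without the 3 pools that stand apart (0.0717). Amy1 (0.51 ± 1.49) and Chia1 (1.68 ± 2.62) were not called. Bhlha15 had a difference of 0.83 ± 0.46 (adjusted p = 0.219), which was 1.22 without lacrimal testosterone pool A (adjusted p = 0.0408).

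Between the submandibular and the meibomian gland 0 of 5 changes differed, where 7.4% of all tested probes did. Agr2 (-0.96 ± 0.32) had an unadjusted p of 0.00906 and an adjusted p of 0.0845, which was 0.0385 and 0.0451 without meibomian placebo pool B or testosterone pool C. Between the lacrimal and the meibomian gland 0 of 5 differed as well, where 17.6% of all tested probes did, and no unadjusted p was under 0.05.

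Relatives and partners of the members were read from lists. Of 13 tested probes for amylase, chitinase, ETS and bHLH relatives, 2 rose and 2 fell with testosterone in the submandibular gland (30.8%, against 13.8% of all tested probes). With the gland fitted alone or with array weights 1 rose and 1 fell, and without the 3 pools that stand apart 1 fell. Id3, an HLH protein that holds bHLH factors inactive, rose to 27.9, 26.7 and 34.1 in testosterone pools, against 7.67, 8.57 and 7.87 in placebo pools (1.85 ± 0.13, adjusted p = 6.47e-08). Tcf4, a bHLH partner, rose by 0.49 ± 0.15 (adjusted p = 0.0389), with pool C of the testosterone group giving no value. Elf5, an ETS factor of secretory epithelium, fell to 5.36, 5.28 and 5.36, against 10.2, 9.77 and 10.2 (-0.89 ± 0.11, adjusted p = 4.46e-05). Rbpjl, a partner of pancreatic acinar factors, fell by 0.63 ± 0.19 (adjusted p = 0.0377), with pool B of the testosterone group giving no value.

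In the lacrimal gland 1 of these 13 rose and 4 fell (38.5%, against 28.1% of all tested probes). The riser was Amy2a5, given above. Tcf4 fell by 1.46 ± 0.13 (adjusted p = 4.73e-07), Elf5 by 0.61 ± 0.11 and Id1, another HLH inhibitor, by 0.52 ± 0.11. Id3 had a change of 0.04 ± 0.13 there. Meibomian pools gave 0 calls of 13. The widest change was -0.67 ± 0.23 for the ETS factor Elf3 (adjusted p = 0.218).

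Reported targets of Bhlha15 in secretory cells moved both ways in the submandibular gland. Of 7 tested probes, 2 rose and 2 fell (57.1%, against 13.8% of all tested probes). With the gland fitted alone 1 rose and 0 fell. Tmed6, a cargo protein of early secretion, rose by 1.22 ± 0.15 (adjusted p = 2.39e-05), and Cplx2, a regulator of vesicle fusion, by 0.79 ± 0.15 (adjusted p = 0.00175). Gjb1, a gap junction protein of acinar cells, fell by 0.79 ± 0.22 (adjusted p = 0.0226), and Copz2, a coat protein subunit, by 0.70 ± 0.15 (adjusted p = 0.00512). Gjb1 had 3.97, 6.09 and 5.98 in testosterone pools, against 8.67, 9.11 and 9.85 in placebo pools, without overlap. Only 1 target rose without the 3 pools that stand apart. Among lacrimal pools 0 rose and 2 fell (28.6%, against 28.1% of all tested probes), Gjb1 (-0.63 ± 0.22, adjusted p = 0.0398) and Tmed6 (-0.57 ± 0.15, adjusted p = 0.00806). Without the 3 pools that stand apart 1 fell, and with the gland fitted alone 0 did. Meibomian pools gave 0 calls of 7, the widest being Rab3d at -0.28 ± 0.23.

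In the list of endoplasmic reticulum machinery, where Agr2 works too, rises outnumbered falls in the submandibular gland. Of 33 probes of 32 genes, 14 rose and 0 fell (42.4%, against 13.8% of all tested probes), with a median of 0.39 over the list and 0.01 over all tested probes. The largest rise was that of Ero1a, the oxidase that charges disulfide isomerases, with 8.80, 5.91 and 9.09 in testosterone pools, against 2.30, 1.93 and 2.22 in placebo pools (1.78 ± 0.15, adjusted p = 5.20e-07). Ddit3, a stress factor, rose by 1.06 ± 0.16, and the disulfide isomerases Pdia4 and Pdia5 by 0.90 ± 0.13 and 0.87 ± 0.15. The count of rises was 12 without the 3 pools that stand apart, with 2 falls, and 7 with the gland fitted alone. Sec61b, Sec11c, Atf4 and Ssr1 were low in submandibular testosterone pool A by the rule given above, and Creb3l1 in pool C. These probes had the widest standard errors of the list (0.65 to 1.04). Their changes were negative but not called, at -2.05, -2.08, -1.65, -1.09 and -2.02 in the order named. They were chosen for mention after their values were seen.

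**Figure D5:**
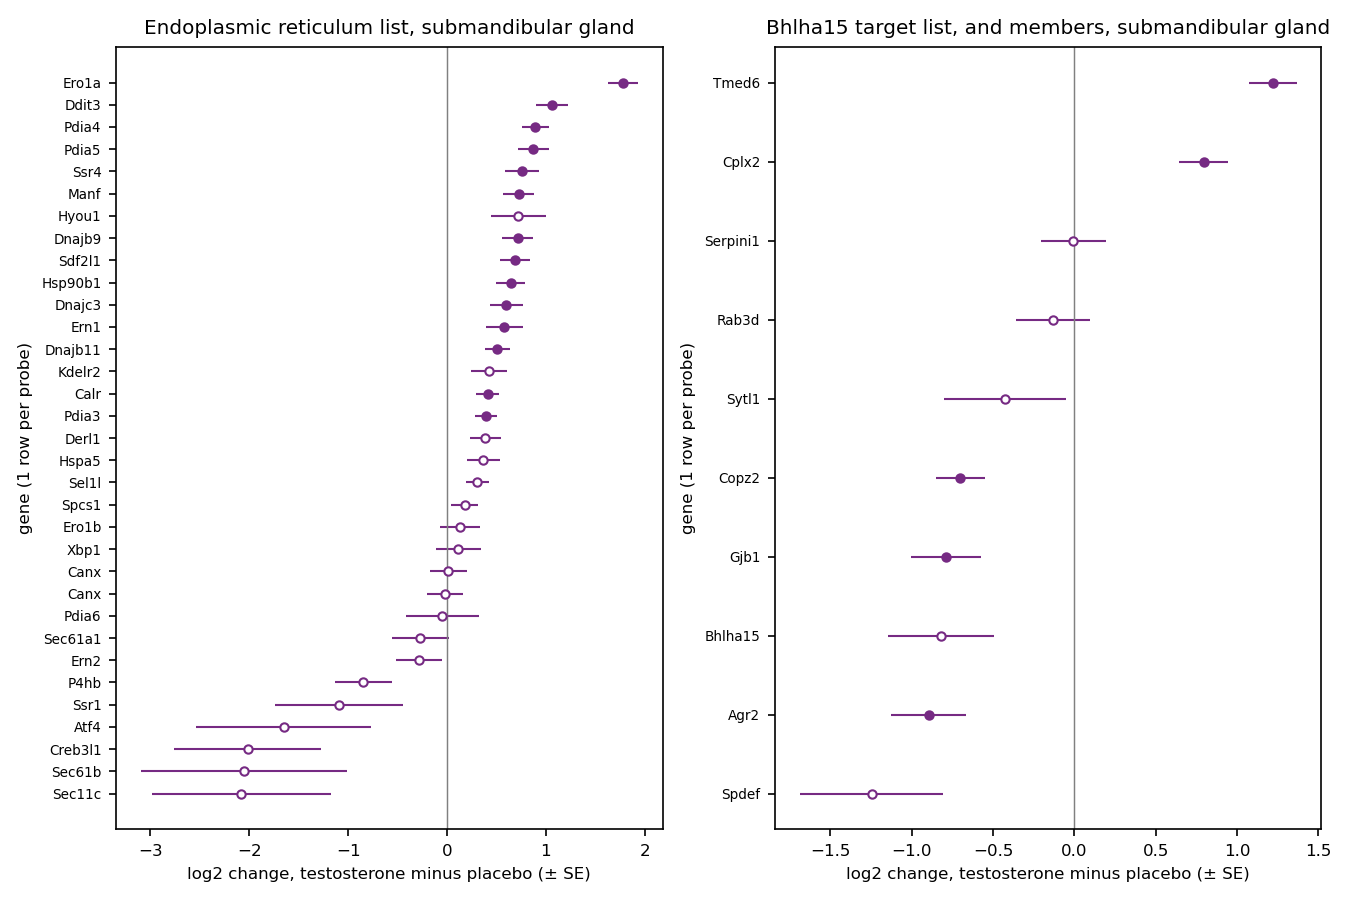
Log2 change with testosterone against placebo in the submandibular gland (± SE, limma) for 33 probes of the endoplasmic reticulum list and for the 7 tested Bhlha15 targets with Agr2, Spdef and Bhlha15; filled points passed an adjusted p of 0.05. On the left 14 probes are filled and all are right of 0; on the right filled points stand on both sides.

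In the lacrimal gland 4 of the 33 probes rose and 3 fell (21.2%, against 28.1% of all tested probes). The rises were 2 without the 3 pools that stand apart and 8 with either quantile normalization, and the falls 7 with the gland fitted alone. Ero1a rose by 0.86 ± 0.15, both probes of the chaperone Canx fell (-0.81 ± 0.19 and -0.77 ± 0.18), and Xbp1, a factor that acts with Bhlha15 in secretory cells, fell to 49.5, 40.1 and 52.1 in testosterone pools, against 77.9, 73.1 and 87.8 in placebo pools (-0.75 ± 0.23, adjusted p = 0.0217). Meibomian pools gave 0 calls of 33, the widest being Ssr4 at 0.53 ± 0.17 (adjusted p = 0.189).

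Of 7 tested genes of the mucous secretion list, 1 rose and 1 fell in the submandibular gland (28.6%, against 13.8% of all tested probes). Muc13, a membrane mucin, measured 13.9, 11.9 and 14.9 in testosterone pools, against 7.33, 6.61 and 6.60 in placebo pools (0.96 ± 0.23, adjusted p = 0.0103). Foxa2, a transcription factor of mucous and other epithelia, fell by 1.12 ± 0.31 (adjusted p = 0.0246). Neither was called without the 3 pools that stand apart. In the lacrimal gland Foxa2 fell too, to 1.65, 1.47 and 1.26 in testosterone pools, against 3.18, 3.19 and 4.96 in placebo pools (-1.25 ± 0.31, adjusted p = 0.00665), the only call of 7 (14.3%, against 28.1% of all tested probes). In the meibomian gland 0 of 7 were called, the widest being Galnt3, which starts mucin glycans, at -0.55 ± 0.14 (adjusted p = 0.0736).

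The probes whose log2 values followed each member most closely over the 18 arrays were named by Pearson's r among 6439 probes with 1 symbol and no missing value. The points share 3 glands and their arrays, and r is given as a description. Chia1 was followed by Chil3 (r = 0.98), Nap1l5 (0.92) and Egr3 (0.91), and Amy1 by Scly (0.97), Hand1 (0.96) and Ash2l (0.96). Agr2 was followed by Zfp36l1 (0.99), the surfactant protein gene Sftpd (0.98) and the casein gene Csn1s2a (0.97). Spdef was followed by Zdhhc16 (0.94), 1700021F07Rik (0.94) and Uox (0.93), and Bhlha15 by its target Gjb1 (0.99), Tulp1 (0.99) and Mapk9 (0.99). Among the members, Amy1 and Chia1 had r = 0.90, Amy1 and Spdef 0.89, and Agr2 and Spdef 0.02.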

How the data were processed

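The submitters deposited 1 table of array values, with 10500 probes on each of 18 1-colour arrays. Its values were used as the deposited intensity of each probe, on a linear scale in which all arrays have nearly the same median. The scanner settings and the scaling that gave it were not given in the sources used here. A value of -1 was read as no value (37 to 118 probes an array), because it lies well below the next lowest value (-0.128), and other negative values were set to 0. Gene names came from the platform annotation, in which 8983 probes have 1 symbol, 1 has several and 1516 have none.

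Values were analysed as log2(intensity + 0.174), the offset being the 10th percentile of positive values. A probe was tested if each group had at least 2 values and if it lay above its array's 40th percentile on at least 3 arrays. That left 7463 probes, after 146 with too few values and 2891 dim ones were dropped. Means of the 6 groups were fitted to all 18 arrays (12 residual degrees of freedom) with limma 3.58.1 in R 4.3.3 (lmFit, eBayes with a trend), with Benjamini-Hochberg adjustment over the tested probes and a threshold of 0.05. The scripts were tested on simulated data. Tables and figures used pandas 2.3.3, numpy 2.4.6 and matplotlib 3.10.9. Residuals of testosterone and placebo pools with the same letter in the same gland had correlations from -0.11 to 0.14. Whether the same animals gave different glands to pools of the same letter was not checked. The comparisons between glands treat all 18 arrays as independent.

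The alternatives were each gland fitted alone, offsets 4 times smaller and larger, filters, quantile normalization, array weights, a replicate block and each pool left out. Leaving out 3 pools together was added after seeing the data. The members and gene lists were chosen with earlier results of these data known. Named list genes were up to 4 with the widest change among those called in a gland, or up to 2 where none was called, besides the 5 members and the 3 probes most like each. Some others, such as Tff1 and Muc5ac in the meibomian gland, were named outside this rule after their values were seen.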

Additional observations from a re-analysis of the deposited data

Results flagged for a closer look

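The change with testosterone differed between the lacrimal and the submandibular gland for Agr2, by 1.03 on the log2 scale (limma adjusted p = 0.0290), and for Spdef, by 2.04 (adjusted p = 0.0254). These are tests of the difference itself, lacrimal minus submandibular. Both calls were lost with array weights and without any of lacrimal testosterone pool A, submandibular testosterone pool C or submandibular placebo pool C. All 3 submandibular testosterone pools lay below all 3 placebo pools for both genes, as for 12.3% of all tested probes. In the lacrimal gland the groups overlapped. The lacrimal Spdef change of 0.79 was 0.06 without lacrimal placebo pool C.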

How the results depend on the processing

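With 3 pools a group and 1 probe a gene, the pools limit every value, and the cause of the changes below was not tested. Without the 3 pools that stand apart, the lacrimal change was 1.56 for Amy1 and -0.64 for Bhlha15, and the submandibular change 0.20 for Chia1, -0.84 for Agr2 and -0.98 for Bhlha15. The lacrimal minus submandibular difference was then -0.75 for Chia1 and 1.11 for Agr2, and the submandibular minus meibomian one 0.0111 for Chia1. With array weights the lacrimal Chia1 change was 0.10, the meibomian ones -0.0891 for Agr2 and -0.22 for Bhlha15, the submandibular Agr2 change -0.89, and the lacrimal minus submandibular difference 1.02 for Agr2 and 1.90 for Spdef. Quantile normalization over all arrays or within glands gave -0.0716 and -0.0722 for Bhlha15 in the lacrimal gland, and in the meibomian gland -0.0941 and -0.0929 for Agr2 and -0.0548 and -0.0329 for Bhlha15. Spdef in the submandibular gland was -1.25 with the gland fitted alone or with the replicate block, and -1.16 with the larger offset, all called. The replicate block changed no other call of the 5 genes for testosterone.

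Probes called in the meibomian gland numbered 44, against 246 with the gland alone, 77 with the larger offset, 28 with quantile normalization over all arrays and 2661 with array weights. Those called in the submandibular gland numbered 1029, against 409 alone. Array weights gave 2322 against 1315 for lacrimal minus meibomian and 1258 against 552 for submandibular minus meibomian.

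Leaving out 1 pool at a time gave, in the lacrimal gland, -0.27 to 2.63 for Amy1, -2.45 to 1.26 for Chia1 and -0.37 to 0.40 for Bhlha15. In the meibomian gland it gave -0.23 to 0.29 for Agr2, -0.35 to 0.15 for Spdef, -0.0781 to 0.20 for Bhlha15 and 0 to 170 called probes. In the submandibular gland it gave -3.61 to 0.20 for Chia1, -0.94 to -0.84 for Agr2 and -1.33 to -1.07 for Spdef. Lacrimal minus submandibular ran from -0.65 to 2.26 for Amy1, -0.84 to 3.59 for Chia1, 0.92 to 1.16 for Agr2, 1.31 to 2.49 for Spdef and 0.45 to 1.22 for Bhlha15. Submandibular minus meibomian ran from -3.80 to 0.0111 for Chia1 and -1.19 to -0.66 for Agr2, with 361 to 703 called probes.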
